A study of Homo sapiens with 6 samples.

Results

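The genes described here are 36 human genes of serine, glycine, folate and methionine metabolism, chosen by name to cover 9 branches of the pathway, out of 39554 genes in the deposited count table. Of these, 35 were found by gene name. SHMT1 was found by its gene ID, because its row is named SHMT1_1 and placed on an alternate scaffold. That row runs from 88247 to 18363550, so it may cover more than the scaffold copy. The cells were SW620, an established human colorectal cancer line, from which RNA was taken 72 h after a small interfering RNA (siRNA) was transfected. A negative-control siRNA was used for 3 libraries (siNC, genotype labelled WT) and an siRNA against SOWAHA, a gene of an ankyrin repeat family, for the other 3 (siSOWAHA, genotype labelled as a SOWAHA knockdown). The treatment label reads knock-down in all 6, so the groups were taken from the sample titles. All 6 libraries thus share the transfection reagent, the growth medium and the harvest time, and no untransfected cells are among them. Neither the number of siRNAs nor the use of separate cultures is stated in the labels. The p-values therefore reflect variation among these 6 libraries, part or all of which may be technical.

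Serine is made from a glycolytic intermediate by PHGDH, PSAT1 and PSPH, in that order. Serine hydroxymethyltransferases then split serine into glycine and a methylene group carried by folate, and the folate enzymes of the cytosol and of the mitochondria pass that group on to purines, thymidylate and methionine. Methionine is activated to S-adenosylmethionine, the methyl donor of the cell, and what is left after methylation is recycled to methionine or diverted to cysteine by transsulfuration. In colorectal cancer cells, as in other proliferating cells, the pathway is best known for feeding nucleotide synthesis.

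Each library held 49937395 to 59474396 counts, of which the 36 genes took 0.501% to 0.506% of the counts in siNC libraries and 0.479% to 0.482% in siSOWAHA libraries. SOWAHA itself had 32.3, 39.4 and 33.8 CPM (read counts scaled to library size with TMM factors) under siNC and 7.52, 6.85 and 8.96 CPM under siSOWAHA, with no overlap. Of 9 colorectal epithelial markers, 8 were above 1 CPM in some library, and LGALS4 was under 1 CPM in all 6. In edgeR's test 5 of the 9 (CDH1, KRT8, KRT19, CDH17 and CDX2) were lower and 0 higher. Of all tested genes 7.77% were called lower, and 24.7% were called either way among those averaging 5 CPM or more. CDH1 kept its call in 8 of 14 alternative settings, and KRT8, KRT19, CDH17 and CDX2 in all 14. Summed over the 9, the level was 9520 to 9830 CPM in siNC and 8880 to 8990 CPM in siSOWAHA libraries. Summed markers of other cell types stayed low for 5 leukocyte markers, at 6.39 to 8.97 CPM (PTPRC, CD3E and MS4A1 at 0 counts). They were also low for 4 endothelial markers, at 1.61 to 2.88 CPM. For 5 fibroblast markers the sum was 69.7 to 75.8 CPM in siNC and 79.5 to 91.6 CPM in siSOWAHA libraries. Most of it was LUM (means of 61.1 and 76.4 CPM), the 1 called higher. COL1A1 (means of 9.18 and 6.96 CPM) and PDGFRB (2.13 and 1.55 CPM) were lower without overlap but were not called. COL1A2, under 1 CPM, was not called, and COL3A1 was not tested. The part of these shifts in the results that follow was not tested. In a bulk sample, fewer cells that express a gene and less of its RNA per cell cannot be told apart.

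In the siSOWAHA libraries all 3 enzymes of serine synthesis were lower, the mitochondrial and cytosolic synthetases MTHFD1L and MTHFD1 went in opposite directions, and the methionine cycle lost transcript at MTR and MAT2A. Among the members, the folate carriers SLC19A1 and SLC25A32, both serine hydroxymethyltransferases and both transsulfuration enzymes did not pass the test. Of the 36 members, 35 passed the filter on low counts, and 10 of these passed edgeR's quasi-likelihood test at a Benjamini-Hochberg adjusted p of 0.05 over all genes. In all, 7 were lower and 3 higher. Across the 17693 genes tested, 16.9% were called, 9.12% as higher and 7.77% as lower, and the share was 24.7% among the 11310 genes averaging 5 CPM or more. At that level 10 of 34 members were called, or 29.4%, which is near that background. The number of calls is therefore not a result about these genes, and the description rests on which members changed and by how much.

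The changes were modest. The median log2 fold change of the 35 tested members was 0.017 and that of all tested genes -0.008, with median absolute changes of 0.098 and 0.145. Of the 10 called members, 4 changed by more than 1.2-fold: PSAT1, PSPH, ALDH1L2 and MTR. All 10 had groups that did not overlap, as had 13 of the 35 tested members (37.1%) and 33.0% of all tested genes, again not matched for level. The exact two-sided permutation test over 6 libraries gave p = 0.1 for each of the 10, the smallest that 3 against 3 libraries allow.

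**Figure D1:**
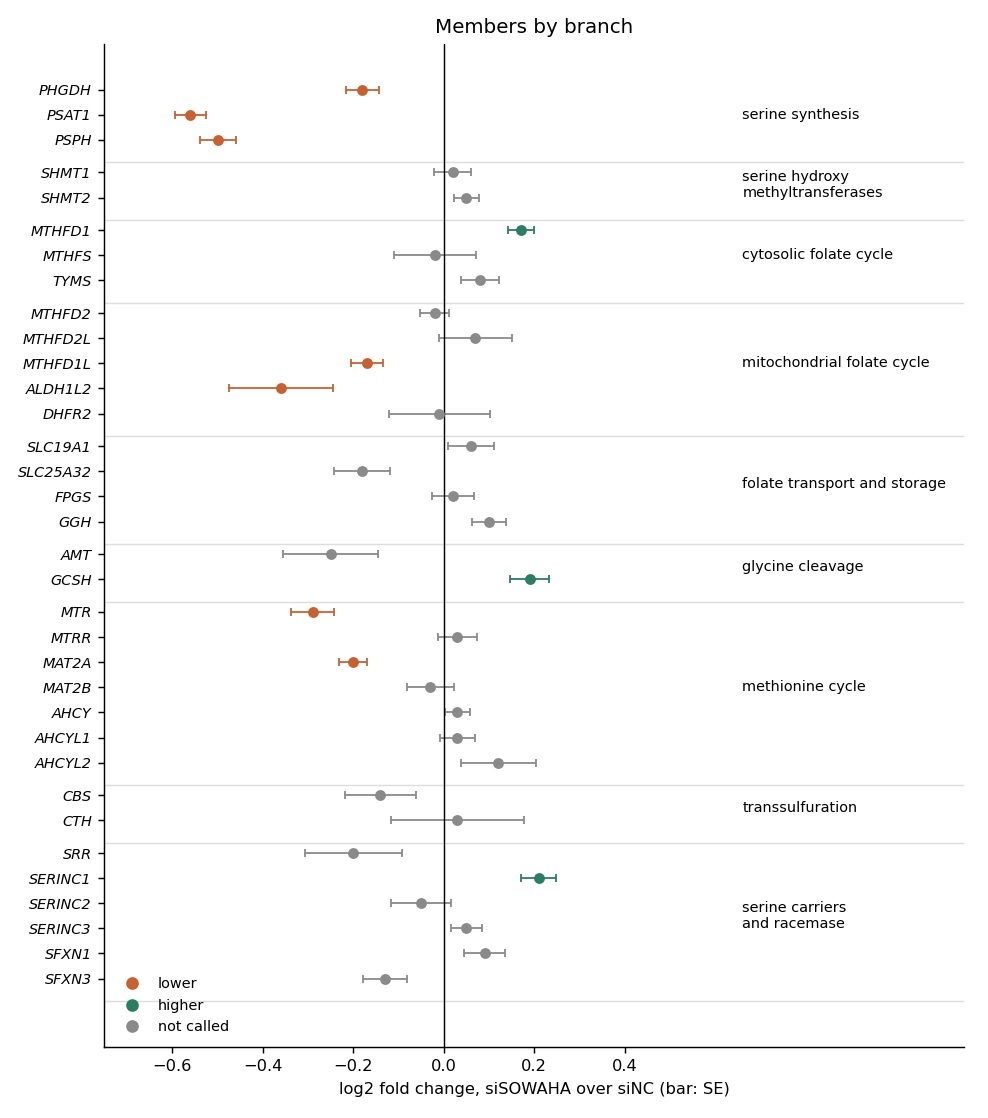
Log2 fold change (siSOWAHA over siNC, x axis) of 34 members in 9 branches, with the SE from edgeR as bars (orange called lower, green called higher, grey not called); ALDH1L1, at 0 to 0.442 CPM, is left out for its wide error. The 3 serine synthesis genes lie at -0.56 to -0.18, whereas most other members lie close to 0.

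Among the 10 called members, PSAT1 and PSPH of serine synthesis had the largest log2 fold changes. PSAT1, the aminotransferase of the second step (gene ID 29968, on the plus strand of chromosome 9, 78297125 to 78330093, GRCh38), had 435, 433 and 404 CPM under siNC against 293, 292 and 279 CPM under siSOWAHA. Every siSOWAHA library was below every siNC library, with 67.9% of the control mean remaining (log2 fold change -0.56, SE 0.0342, edgeR adjusted p = 3.93e-08). RefSeq names 4 pseudogenes of PSAT1, among which reads could be divided, and none of them is in the count table. RefSeq also names 1 pseudogene each for PSPH, MTHFD1 and MAT2A. PSPH, the phosphatase that releases free serine (chromosome 7, 56010487 to 56051604, minus strand), was at 143, 153 and 144 CPM in siNC and at 101, 103 and 106 CPM in siSOWAHA libraries. These groups did not overlap either, and 70.6% was left (log2 fold change -0.50, SE 0.0398, edgeR adjusted p = 5.67e-07).

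PHGDH, the dehydrogenase that commits carbon to the pathway (chromosome 1, 119711934 to 119744218, plus strand), fell less. It was at 159, 155 and 160 CPM in siNC and at 140, 142 and 136 CPM in siSOWAHA libraries, so that 88.3% was left (log2 fold change -0.18, SE 0.0358, edgeR adjusted p = 0.00265). PHGDH overlaps LOC105378936 on the same strand, so some of its reads could belong to either. Within each library PSAT1 stood above PHGDH in the authors' length-scaled FPKM values. The log2 ratio was 3.24, 3.28 and 3.13 in siNC and 2.86, 2.83 and 2.83 in siSOWAHA libraries. The size of such a ratio depends on the gene lengths used for FPKM. In CPM the siNC means were 424 for PSAT1 and 158 for PHGDH, a smaller gap. The FPKM ratio was lower in all 3 siSOWAHA libraries, by 0.38 on average (exact two-sided permutation p = 0.1, adjusted p = 0.18 over 9 ratios, in a design that cannot go below 0.1). Summed over the 3 genes, the level went from 239 ± 7.08 to 165 ± 3.29 FPKM (SD, n = 3 each).

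**Figure D2:**
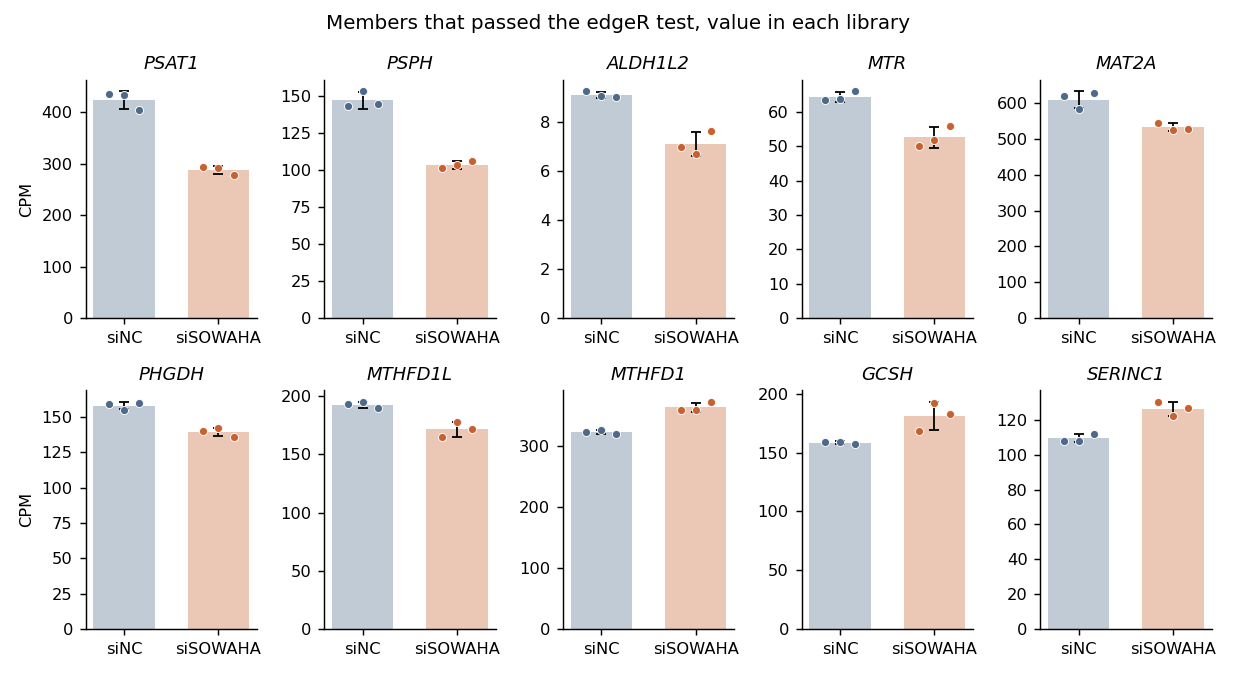
CPM of the 10 members that passed the edgeR test, with each library as a point, the group mean as a bar from 0 and the SD (n = 3) as an error bar, ordered by log2 fold change. In each panel the 3 siSOWAHA libraries (orange) lie wholly below or wholly above the 3 siNC libraries (blue); PSAT1 goes from 404 to 435 CPM down to 279 to 293 CPM.

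Promoters of 2 of the 3 lower serine synthesis genes, PSAT1 and PHGDH, are shown. They run from 250 bases before to 50 bases after the start site, from RefSeq (GRCh38.p14, plus strand). No such promoter was found for PSPH, so its letters were not searched. PSAT1 is at chr9:78296875-78297174 and PHGDH at chr1:119711684-119711983.
PSAT1: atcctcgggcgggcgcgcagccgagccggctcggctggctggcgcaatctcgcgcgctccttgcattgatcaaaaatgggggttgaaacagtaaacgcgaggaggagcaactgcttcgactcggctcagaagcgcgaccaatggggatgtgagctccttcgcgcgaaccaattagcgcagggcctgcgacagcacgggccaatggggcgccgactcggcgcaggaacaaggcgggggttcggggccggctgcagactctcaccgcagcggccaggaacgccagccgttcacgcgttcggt
PHGDH: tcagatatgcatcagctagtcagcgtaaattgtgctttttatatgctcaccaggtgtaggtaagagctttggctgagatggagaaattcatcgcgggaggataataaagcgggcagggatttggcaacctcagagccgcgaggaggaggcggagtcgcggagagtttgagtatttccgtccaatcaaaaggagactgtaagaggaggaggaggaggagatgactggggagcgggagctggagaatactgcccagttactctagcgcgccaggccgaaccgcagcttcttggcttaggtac

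Promoters of this kind were found for 30 of the 36 members and searched on both strands for an amino acid response element (TGATGNAA, bound by ATF4, a stress-induced activator of serine synthesis genes), an E-box (CACGTG, bound by MYC and related factors) and an antioxidant response element (TGACNNNGC). A match would be in capitals. These letters were in neither window. Over all 35116 promoter windows the share with a match was 3.62% for the amino acid response element, 7.26% for the E-box and 13.3% for the antioxidant response element. Of the 30 members, 3, 4 and 8 held a match in at least one of their windows, and several genes have more than one window, so the shares are not directly comparable.

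The serine hydroxymethyltransferases, which take serine into the folate cycle, did not pass the test. SHMT2, the mitochondrial serine hydroxymethyltransferase, was at 536, 568 and 551 CPM in siNC and at 572, 570 and 569 CPM in siSOWAHA libraries. The groups were close but apart, and the log2 fold change of 0.05 did not pass (95% interval -0.01 to 0.10, edgeR adjusted p = 0.271). SHMT1, the cytosolic form, had 61.4 to 62.4 CPM and 61.7 to 63.2 CPM (log2 fold change 0.02, interval -0.06 to 0.10). Neither passed at an unadjusted p of 0.05, and DESeq2 and limma-voom called 0 of them too. The log2 FPKM ratio of SHMT2 to SHMT1 was 4.12 ± 0.0515 in siNC and 4.15 ± 0.0157 in siSOWAHA libraries (SD, n = 3 each), with overlapping groups.

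In the cytosolic folate cycle MTHFD1 rose. This trifunctional enzyme interconverts the folate forms that feed purine and thymidylate synthesis (chromosome 14, 64388353 to 64460025, plus strand). It was at 322, 326 and 320 CPM in siNC and at 358, 358 and 372 CPM in siSOWAHA libraries, all of the latter being higher. The log2 fold change was 0.17 (SE 0.0287, edgeR adjusted p = 7.78e-04). TYMS, the thymidylate synthase, had 132 to 148 CPM and 146 to 148 CPM and did not pass (edgeR adjusted p = 0.249). MTHFS, which returns formyltetrahydrofolate to the active pool, had 23.1 to 25.4 CPM and 20.1 to 25.9 CPM (log2 fold change -0.02, interval -0.20 to 0.16). ALDH1L1, a formyltetrahydrofolate dehydrogenase, was near the limit of detection, with 0 to 0.271 CPM in siNC and 0.200 to 0.442 CPM in siSOWAHA libraries. The 0 in siNC replicate 2 allows up to 0.0504 CPM.

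The mitochondrial folate cycle had 2 of 5 members lower and 0 higher, and 1 of these calls was marginal. That is 40% called, against 24.7% of all tested genes averaging 5 CPM or more. MTHFD1L, the mitochondrial formyltetrahydrofolate synthetase that releases formate (chromosome 6, 150865684 to 151101887, plus strand), was at 193, 195 and 190 CPM in siNC and at 165, 178 and 172 CPM in siSOWAHA libraries. It was lower in all 3 siSOWAHA libraries (log2 fold change -0.17, SE 0.0358, edgeR adjusted p = 0.00459). ALDH1L2, the mitochondrial formyltetrahydrofolate dehydrogenase, was at 9.25, 9.04 and 9.02 CPM in siNC and at 6.98, 6.68 and 7.64 CPM in siSOWAHA libraries. It fell by 0.36 on the log2 scale (SE 0.115), but with an edgeR adjusted p of 0.0451 the call was marginal. Leaving out any 1 library ended it (adjusted p 0.0573 to 0.136), as did DESeq2 (0.0568), no filter on low counts (0.0555) and a replicate block (0.0702).

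The other mitochondrial folate genes did not pass. MTHFD2, the dehydrogenase and cyclohydrolase upstream of MTHFD1L, had 239 to 248 CPM and 235 to 244 CPM (interval -0.08 to 0.04). RefSeq names 7 pseudogenes of it. MTHFD2L, its paralogue, had 14.7 to 15.8 CPM and 15.7 to 16.4 CPM (interval -0.09 to 0.23). DHFR2, a mitochondrial dihydrofolate reductase, had 10.1 to 11 CPM and 9.55 to 12.1 CPM (interval -0.23 to 0.21), and its counts are uncertain because the genome holds a near-identical coding gene.

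A shift of MTHFD1L relative to MTHFD1 was also seen within libraries, free of scaling between them. A ratio does not show the direction of either gene, which rests on the edgeR test above. Its size depends on the gene lengths used for FPKM, and in CPM the siNC means were 193 for MTHFD1L and 323 for MTHFD1. The log2 FPKM ratio of MTHFD1L to MTHFD1 was -2.83, -2.84 and -2.84 under siNC against -3.21, -3.10 and -3.20 under siSOWAHA. It differed by -0.34, several times the SD of either group (0.00251 and 0.0593), with the smallest permutation p allowed (exact, two-sided, p = 0.1; adjusted p = 0.18 over 9 ratios). Of the 9 ratios, MTHFD2 to MTHFD2L (-0.09), SFXN1 to SFXN3 (0.23) and SERINC1 to SERINC3 (0.16) also had groups that did not overlap. The ratios of SHMT2 to SHMT1, AHCYL1 to AHCY, AHCYL2 to AHCYL1 and MAT2A to MAT2B overlapped between groups.

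**Figure D3:**
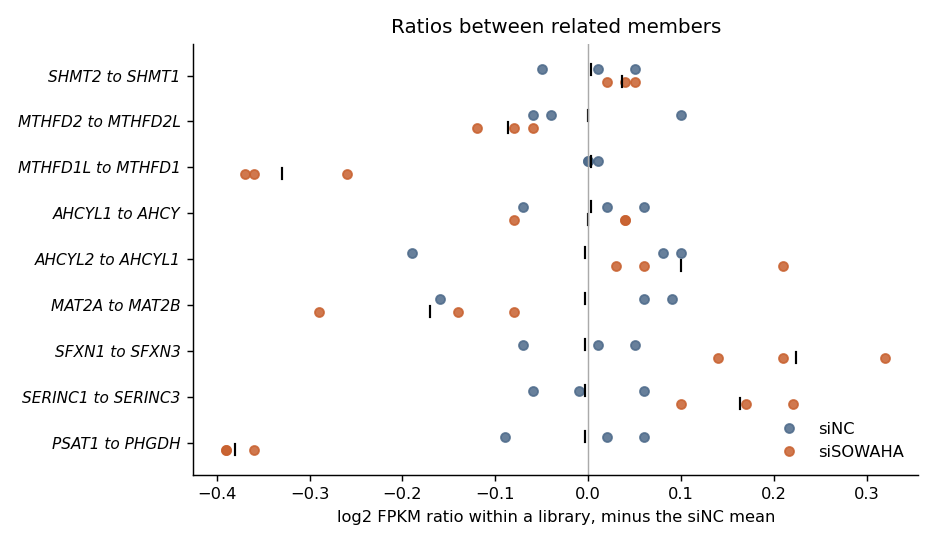
Log2 FPKM ratios of 9 pairs of members within each library (x axis, as the difference from the siNC mean), with points for libraries and black ticks for group means. The siSOWAHA points (orange) of MTHFD1L to MTHFD1 and of PSAT1 to PHGDH lie to the left of all siNC points (blue), with mean differences of -0.34 and -0.38.

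The promoters of this pair hold matches to the motifs above, printed in capitals (RefSeq, GRCh38.p14, plus strand). MTHFD1L has an E-box whose first base is at -154 and an amino acid response element at -129 from the start site of the window shown, chr6:150866236-150866535, and the 2 matches do not overlap. RefSeq gives MTHFD1L other start sites, from which the same letters lie at -1 and 25 or at -115 and -90, and a window further downstream holds no match. MTHFD1 has an E-box at -15 in chr14:64388103-64388402. A match is a description of the letters and not evidence of binding.
MTHFD1L: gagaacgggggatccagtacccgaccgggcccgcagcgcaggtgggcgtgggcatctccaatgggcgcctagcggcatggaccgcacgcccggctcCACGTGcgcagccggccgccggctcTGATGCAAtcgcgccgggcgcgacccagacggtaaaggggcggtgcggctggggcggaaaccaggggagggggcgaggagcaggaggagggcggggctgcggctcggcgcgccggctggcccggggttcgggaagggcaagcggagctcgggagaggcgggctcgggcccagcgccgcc
MTHFD1: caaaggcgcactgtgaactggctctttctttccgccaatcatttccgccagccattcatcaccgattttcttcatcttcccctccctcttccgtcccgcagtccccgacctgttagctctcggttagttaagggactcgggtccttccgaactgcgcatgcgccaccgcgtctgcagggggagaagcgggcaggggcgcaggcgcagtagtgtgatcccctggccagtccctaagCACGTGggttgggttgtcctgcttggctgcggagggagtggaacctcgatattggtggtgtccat

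Of the 4 folate transport and storage genes, none passed edgeR's test, DESeq2 or limma-voom, and 2 had an unadjusted p under 0.05. SLC25A32, which carries folate into mitochondria, came closest, at 61.5, 68.7 and 58.0 CPM in siNC and 53.9, 59.7 and 52.9 CPM in siSOWAHA libraries. The groups overlapped (log2 fold change -0.18, SE 0.0616, edgeR adjusted p = 0.064), and the call depended on the setting, with adjusted p = 0.0188 under a replicate block and 0.331 as the highest value with a library left out. GGH, the hydrolase that trims stored folate, had 158 CPM in all 3 siNC libraries and 162, 175 and 171 CPM in siSOWAHA libraries (edgeR adjusted p = 0.0858). SLC19A1, the reduced folate carrier, and FPGS, which traps folate in the cell by adding glutamates, had intervals of -0.04 to 0.16 and -0.07 to 0.11.

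Glycine cleavage, which breaks glycine down in mitochondria, was incomplete at the transcript level. GLDC, its decarboxylase, had 0.119 to 0.487 CPM in siNC libraries and 0, 0.295 and 0 CPM in siSOWAHA libraries, and was the only member that failed the filter. In siSOWAHA replicates 1 and 3 its count of 0 allows up to 0.0601 and 0.0559 CPM. GCSH, the carrier protein of the system, which is needed for protein lipoylation too, rose from 159, 159 and 157 CPM to 168, 192 and 183 CPM (log2 fold change 0.19, SE 0.0431, edgeR adjusted p = 0.00654). RefSeq names 6 pseudogene copies of GCSH, so its counts are uncertain. The 1 copy in the count table held 12 counts over the 6 libraries, against 55842 for GCSH. AMT, the aminomethyltransferase, had 14.4 to 18.9 CPM and 13.5 to 15.5 CPM and did not pass (log2 fold change -0.25, edgeR adjusted p = 0.123).

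The methionine cycle had 2 of 7 members lower and 0 higher. That is 28.6% called, near the 24.7% of all tested genes averaging 5 CPM or more. MTR, the cobalamin-dependent methionine synthase that joins this cycle to folate (chromosome 1, 236794304 to 236903981, plus strand), was at 63.3, 63.7 and 66 CPM in siNC and at 49.9, 51.9 and 55.8 CPM in siSOWAHA libraries. All siSOWAHA values were lower, and 81.6% was left (log2 fold change -0.29, SE 0.0483, edgeR adjusted p = 6.2e-04). MAT2A, the catalytic subunit that makes S-adenosylmethionine (chromosome 2, 85539168 to 85545281, plus strand), was at 619, 582 and 626 CPM in siNC and at 544, 523 and 527 CPM in siSOWAHA libraries. It was lower in each (log2 fold change -0.20, SE 0.0308, edgeR adjusted p = 4.03e-04). MAT2A overlaps GGCX, and MTHFD1 overlaps ZBTB25, each on the other strand, and the strand setting of the counting is unknown.

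The partners of these enzymes did not pass. MTRR, the reductase that keeps MTR active, had 113 to 121 CPM and 114 to 125 CPM (interval -0.06 to 0.11). MAT2B, the regulatory subunit of MAT2A, had 84.8 to 93.6 CPM and 82.9 to 91.9 CPM (interval -0.13 to 0.08). AHCY, which hydrolyses S-adenosylhomocysteine, had 585 to 625 CPM and 616 to 621 CPM (interval -0.03 to 0.08), and RefSeq names 8 pseudogenes of it. Its relatives AHCYL1 and AHCYL2, whose products are better known as regulators of calcium release and ion transport, had log2 fold changes of 0.03 and 0.12.

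Transsulfuration turns homocysteine into cysteine. CBS, its first enzyme, was at 37.5, 34.5 and 40.9 CPM in siNC and 38.2, 31.9 and 32.7 CPM in siSOWAHA libraries, with overlap (log2 fold change -0.14, edgeR adjusted p = 0.275). CTH, the second, was low at 6.89 to 9.48 CPM and 7.30 to 9.83 CPM (interval -0.25 to 0.32). Neither had an unadjusted p under 0.05, and DESeq2 and limma-voom called 0 of both.

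Of the serine carriers, SERINC1 rose. It belongs to a family named for incorporating serine into membrane lipids, a role that is disputed, and it was at 108, 108 and 112 CPM in siNC and at 130, 122 and 127 CPM in siSOWAHA libraries. The groups did not overlap (log2 fold change 0.21, SE 0.0387, edgeR adjusted p = 0.00138). Its relatives SERINC2 (29 to 32.7 and 28.9 to 30.4 CPM) and SERINC3 (166 to 174 and 174 to 178 CPM), the latter known for restricting retroviral infectivity, did not pass. SFXN1, the mitochondrial serine transporter, had 105 to 119 CPM and 118 to 123 CPM (edgeR adjusted p = 0.182), and SFXN3, its paralogue, 52.0 to 54.0 CPM and 46.0 to 50.5 CPM (edgeR adjusted p = 0.0825). SRR, the racemase that makes D-serine, had 10.4 to 11.3 CPM and 9.04 to 10.6 CPM (-0.20 on the log2 scale, edgeR adjusted p = 0.255).

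By FPKM a few genes stood highest, a ranking that depends on the gene lengths used for FPKM. MAT2A (201 FPKM), SHMT2 (192), PSAT1 (179) and AHCY (124) had a mean above 100 FPKM in siNC libraries and ranked 179, 191, 213 and 349 among 24901 genes. The ranges of MAT2A (192 to 208 FPKM) and SHMT2 (186 to 197 FPKM) overlapped in siNC libraries, and that of PSAT1 was 171 to 183 FPKM. In siSOWAHA libraries PSAT1, at 116 to 123 FPKM, was just under AHCY, at 124 to 126 FPKM. The ranges of MAT2A (170 to 179 FPKM) and SHMT2 (195 to 198 FPKM) no longer overlapped there. In CPM, which is not scaled by length, siNC means were 609 for MAT2A, 606 for AHCY, 552 for SHMT2 and 424 for PSAT1. The siSOWAHA means were 618 CPM for AHCY and 288 CPM for PSAT1. At the other end by FPKM stood MTHFD2L (1.13 FPKM), ALDH1L2 (1.03), GLDC (0.0585) and ALDH1L1 (0.0435). Summed CPM of the 36 members went from 5016 ± 34.7 to 4836 ± 33.4 (SD, n = 3 each), a difference of -180. The 7 lower members gave -310, of which PSAT1 gave -136 and MAT2A -77.5. The 3 higher members gave 80, and the 26 not called or not tested gave 50.

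**Figure D4:**
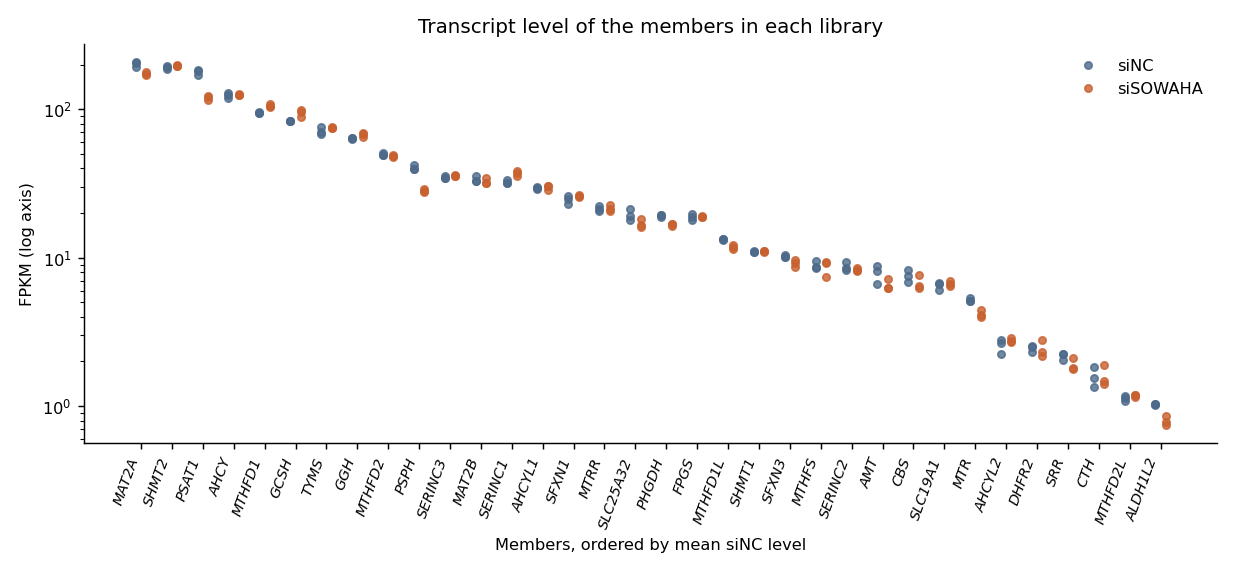
FPKM of 34 members in each library on a log axis, ordered by mean siNC level; each gene has 3 siNC points (blue) and 3 siSOWAHA points (orange), and GLDC and ALDH1L1, under 1 FPKM, are left out. PSAT1 drops from 171 to 183 FPKM to 116 to 123 FPKM, while SHMT2 stays at 186 to 198 FPKM.

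In the authors' FPKM values, tested with limma on log2(FPKM + 1), 9 of 34 members passed, 3 higher and 6 lower, against 20.7% of the 12027 genes tested. All 9 had the direction they had in the counts, from the same reads, and ALDH1L2 was the called member that did not pass (adjusted p = 0.0982).

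An siRNA can lower transcripts other than its target through short matches in their 3′ untranslated regions. Matches to 7 bases of AGATTTCA were linked to lower transcripts in an earlier look at these same libraries, so their count here is no independent evidence, and the siRNA sequence was not used here. In the longest GENCODE 29 3′ untranslated region of each gene, 31.4% of the genes that fell held such a match, against 24.6% of those that rose and 22.1% of those without a call. Of the members, 4 of the 7 that fell, 1 of the 3 that rose and 7 of the 25 without a call had one. The length of the region was not taken into account in these shares and counts. It was 1007 bases for PSAT1, 393 for MTHFD1L, 4634 for ALDH1L2 and 6337 for MTR, which fell and had a match. PHGDH, PSPH and MAT2A, which fell and had no match, had 353, 695 and 1508 bases. PSAT1 carries all 8 bases, MTHFD1L, ALDH1L2 and MTR carry 7, and GCSH, which rose, carries 7. PSPH, PHGDH and MAT2A, which fell, carry none. The part of these matches in the changes was not tested. MTR has 2 matches, of which 1 is shown. The sites of these 5 genes are given with the match in capitals, 5′ to 3′ on the transcript (GRCh38), at chr9:78329359-78329388 (plus), chr6:151101620-151101649 (plus), chr12:105022533-105022562 (minus), chr1:236897924-236897953 (plus) and chr16:81084268-81084297 (minus).
PSAT1 site: tttttctagttAGATTTCAaacttgcctgt
MTHFD1L site: aaataggccaaAGATTTCttcttcgttcaa
ALDH1L2 site: atgttttaactGATTTCAtgtgatttagaa
MTR site: agaggtcgtttGATTTCAaagcaagtcaac
GCSH site: agttatgtttaAGATTTCtggctaggcgca

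Genes around the pathway were taken from 7 further lists of 68 genes, of which 59 were tested, 10 rose and 10 fell. That is 33.9% called, against 16.9% of all tested genes and 24.7% of those averaging 5 CPM or more. The median log2 fold change was -0.012 against -0.008 over all tested genes. The lists were chosen with earlier results of these data known. This share and that of each list below are therefore no independent evidence about these genes. Of these 20 calls, 12 held in every alternative. In serine and glycine transport 1 of 9 rose and 2 fell (median log2 fold change 0.026). SLC1A4, an exchanger of serine and alanine, fell from 21.7, 18.6 and 20 CPM to 11.7, 12.2 and 12.8 CPM (-0.72 on the log2 scale, edgeR adjusted p = 4.35e-05). SLC36A1, a proton-coupled glycine carrier, fell by 0.36 on the log2 scale, and SLC38A2, a sodium-coupled carrier of small neutral amino acids, rose by 0.21. Of 6 other folate carriers and users only FOLR1, a folate receptor, passed, with 43.5, 47.1 and 44.0 CPM in siNC and 32.1, 33.3 and 36.4 CPM in siSOWAHA libraries (log2 fold change -0.40, edgeR adjusted p = 3.1e-04). ATIC, a purine enzyme that uses formylfolate (0.07, edgeR adjusted p = 0.16), and SLC46A1, the proton-coupled folate transporter (-0.09, edgeR adjusted p = 0.71), did not.

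Of 15 genes of methionine uptake, salvage and S-adenosylmethionine use, 6 rose and 1 fell, or 46.7% called against 16.9% of all tested genes (24.7% at 5 CPM or more), with a median log2 fold change of 0.083; 3 of the 7 calls held in every alternative, and SLC3A2, AMD1, SRM and SMS lost theirs in at least one. SLC43A2, a carrier of methionine and other large neutral amino acids, rose from 33.1, 32.7 and 31.7 CPM to 64.2, 57.1 and 57.2 CPM (0.87 on the log2 scale, edgeR adjusted p = 7.34e-08). SLC7A5, the exchanger of the same amino acids, fell by 0.26, and MTAP, the first enzyme of methionine salvage, rose by 0.22. Of 7 serine users, PTDSS1, a phosphatidylserine synthase, rose by 0.17 and GSS, the glutathione synthetase, fell by 0.18, while GCLM, a subunit of glutamate-cysteine ligase, did not pass (0.13, edgeR adjusted p = 0.116). Glycine and serine breakdown had 0 of 7 called, with 0 at an unadjusted p under 0.05, and the betaine route 0 of 3, also with 0; DESeq2 and limma-voom called 0 of both. In the first, LIPT1 (-0.34), SDSL (0.32) and LIPT2 (-0.20) had the smallest adjusted p (0.267, 0.274 and 0.536), and in the second CHDH (-0.05, adjusted p = 0.436).

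Of 12 genes of the ATF4 and amino acid response, 2 rose and 5 fell, or 58.3% called against the same 16.9% and 24.7%, with a median log2 fold change of -0.103; 3 of the 7 calls held in every alternative, and CHAC1, TRIB3, VLDLR and STC2 lost theirs in at least one. The asparagine synthetase ASNS fell from 251, 268 and 246 CPM to 190, 209 and 196 CPM (-0.37 on the log2 scale, edgeR adjusted p = 2.23e-05) and SESN2, a stress-induced inhibitor of mTORC signalling, by 0.47. NUPR1, a small stress-induced chromatin protein, rose by 1.51 on the log2 scale at a low level, with 0.374, 0.689 and 0.780 CPM under siNC and 2.08, 1.84 and 1.37 CPM under siSOWAHA. ATF4, added outside the naming rule because the list bears its name and after its values were seen, was at 498 CPM in siNC and 487 CPM in siSOWAHA libraries on average (log2 fold change -0.03, edgeR adjusted p = 0.544).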

How the data were processed

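Poly(A) RNA of 6 libraries was sequenced as stranded read pairs, per the labels' protocols. The submitters' processing notes name cutadapt 1.9, FastQC and the build GRCh38. Aligner, counting program, strand setting and annotation: not given in the sources used here. Raw counts (39554 genes) and FPKM values (24901 genes, with counts equal to those of the first table) are as the authors deposited them.

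Counts went into edgeR 4.0.16 under R 4.3.3, after its filterByExpr step and with TMM factors (quasi-likelihood F test in its robust form, two-sided, Benjamini-Hochberg adjustment over 17693 genes, threshold 0.05), and SEs come from the log2 fold change divided by the root of F. Intervals are the log2 fold change with 1.96 SE either side. This normal multiplier makes them too narrow for 95% with 3 libraries per group. SFXN1, for example, had an interval of 0.01 to 0.18 at an unadjusted edgeR p of 0.0533. TMM factors also scale the CPM. FPKM values were tested with limma 3.58.1 on log2(FPKM + 1), keeping those that reached 1 FPKM in 3 or more libraries. Both tests were tried on simulated data with known changes. Libraries of a group differed beyond sampling noise, with chi-square values of 8.09 to 14.8 per degree of freedom, and each counts as 1 replicate. Limits for a count of 0 are 3 counts per library and cover counting error only.

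Members, branches, lists and tests were chosen with earlier results of these data known. Named in full were the called members and, in branches with no call, the member with the smallest adjusted p; of each further list, up to 3 genes with the smallest adjusted p, and ATF4 in addition. Alternatives were other scaling factors, other filters, DESeq2 1.42.0, limma-voom, the replicate number as a block, each library left out and an FPKM pseudocount of 0.1. Promoters are from RefSeq and 3′ untranslated regions of at least 50 bases from GENCODE 29.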

Additional observations from a re-analysis of the deposited data

How the results depend on the processing

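Of the 10 called members, 9 kept direction and call in all 14 alternatives of the count test, and ALDH1L2 kept its direction but lost the call in 9. SLC25A32 was called lower in 6, and GGH, AMT and SFXN3 passed in 1 each, where 1 library was left out. The number of members called ranged from 3 to 4 higher and 6 to 8 lower. SOWAHA stayed between -2.29 and -2.09. With each library left out in turn, 1978 (without siNC replicate 3) to 2678 genes were called in counts, against 2988, and 1579 to 2163 in FPKM, against 2494. The FPKM count was 1579 without siNC replicate 3, 1639 without siNC replicate 1 and 1636 without siSOWAHA replicate 3; with no filter on low values it was 1369. Fewer samples or more low genes enter these fits. The median of the members, 0.017, lay between -0.012 (without siNC replicate 1 or siSOWAHA replicate 2) and 0.02.

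Members near 0 changed sign, with no call, when a library was left out: MTHFS (-0.09 to 0.08), MTHFD2 (-0.03 to 0.0), DHFR2 (-0.12 to 0.06), FPGS (-0.01 to 0.06), MTRR (-0.01 to 0.06), MAT2B (-0.07 to 0.02) and CTH (-0.11 to 0.16). The cause was not tested.

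Same-numbered libraries did not deviate together, with correlations of -0.29, -0.16 and 0.137, so the numbers do not pair them. With the replicate block 2599 genes were called, among them 7 members lower and 3 higher. ALDH1L1 and GLDC had under 1 CPM in each library, and their values rest on 0 to 24 and 0 to 29 counts per library.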
